A study of Mus musculus with 12 samples.

Results

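The comparison described here is that of bone marrow-derived macrophages (BMDMs) treated with IL-13 alone and BMDMs left untreated. It rests on 6 of the 12 libraries of the series, chosen by their labels: 3 of BMDMs given IL-13 at 2 ng/ml for 24 h and 3 of untreated BMDMs. All of them came from wild-type C57BL/6 mice, 8 to 10 weeks old by the study's methods, whose bone marrow cells were grown into macrophages in M-CSF, so the untreated cells were M-CSF cultured macrophages as well. The labels name the libraries as replicates of a group, while the number of mice behind them was not found in the labels or methods. The p-values therefore measure a spread between libraries. That spread was estimated in a shared fit of all 12 libraries, the 6 outside this comparison included. The other 6 libraries, IL-13 + DKK1 (30 ng/ml) and DKK1 alone, served as a second reading of the IL-13 effect. Bulk RNA seq reads the RNA of a whole culture: fewer cells of a kind and less RNA per cell cannot be told apart.

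IL-13 is a type 2 cytokine of allergy, helminth infection and fibrosis. It binds a receptor of IL-4Rα and IL-13Rα1, and the Janus kinases on the receptor phosphorylate STAT6, which enters the nucleus and binds DNA. Macrophages that receive this signal take up a program known as alternative activation, whose best known products in the mouse are arginase 1, the resistin-like molecule RELMα, chitinase-like proteins, the mannose receptor and chemokines that attract Th2 cells. SOCS proteins and CIS are induced by STAT factors in many cells and dampen the receptors that induced them.

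Each library held 32772880 to 36325497 counts (median 35269587) with IL-13 and 32304734 to 36313541 (median 36117403) in untreated cells. Levels are given as CPM, the count scaled to a library size of 1000000 after TMM normalisation, and log2 fold changes as IL-13 over untreated ± an approximate standard error. A gene was called where its log2 fold change was above 1 or below -1 with a p, adjusted over the 16306 genes tested (Benjamini-Hochberg), under 0.05 in the quasi-likelihood test of edgeR, and "rose" and "fell" are used of called genes alone. In a principal component analysis of the 6 libraries the groups parted on the first component (60.5% of the variance). On the second, with 11.4%, IL-13 replicate 1 stood at 32.8, against -12.7 and -15.9 for the other IL-13 libraries, and untreated replicate 1 stood at 16.5, against -7.00 and -13.8 for the other untreated libraries. Of the called genes on the lists below or named here, 118 of 249 had exons that overlap another gene, mostly on the opposite strand, and no source used here gives the strand setting of the counting, so reads of such pairs cannot be told apart. Arg1, Cish, Socs1, Socs2 and F13a1 are among them.

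With IL-13, 758 genes rose, which is 4.65% of those tested, and 553 fell, 3.39%, so that 8.04% moved in either direction. Of these, 183 rose and 105 fell by more than 2 on the log2 scale. The median log2 fold change of all genes tested was -0.024. The counts called in each list below stand against the 4.65% and 3.39% given here. At any fold, 7664 of the 16306 genes tested had an adjusted p under 0.05 (edgeR), 3903 with a positive change and 3761 with a negative one. The values of the 2 groups did not overlap for 745 of the 758 genes that rose and 524 of the 553 that fell. These genes were already selected for their change, so this is no separate evidence for the calls. The share among all genes tested is not given here. Without IL-13 replicate 1 the counts were 782 and 601, and without untreated replicate 1 they were 749 and 484. Protein-coding genes made up 646 of the genes that rose and 393 of those that fell, and long non-coding RNAs 41 and 102. A stricter test, edgeR's TREAT, which asks whether a change exceeds the fold threshold, called 356 genes higher and 110 lower, and genes named below that it did not call are given as such.

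**Figure D1:**
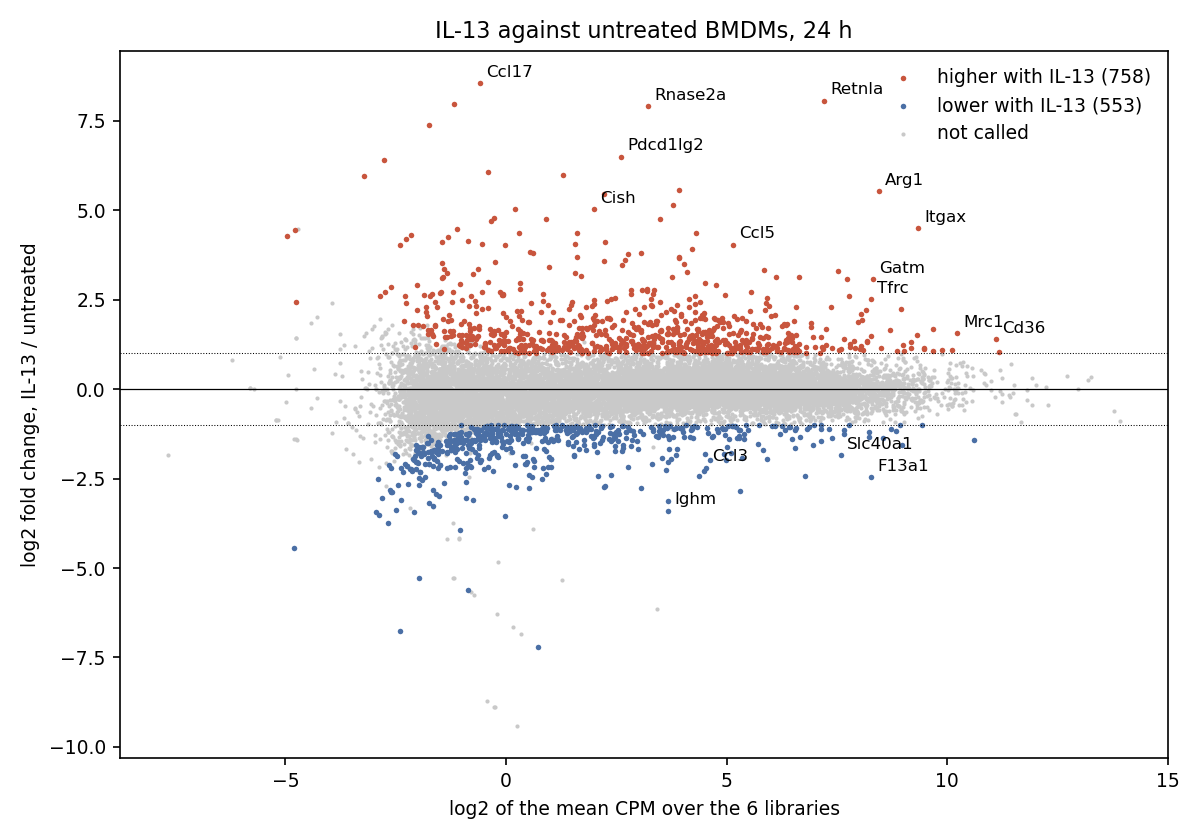
Log2 fold change of IL-13 over untreated BMDMs against the log2 of the mean CPM over the 6 libraries, with 1 point per gene; red points are the 758 genes called higher, blue points the 553 called lower, grey points genes not called, and the dotted lines mark a log2 fold change of 1 and -1. Among the more abundant genes called, Retnla lies at 8.06 and Arg1 at 5.54, while Ighm lies at -3.40.

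The IL-13 receptor chains did not rise, and feedback inhibitors of the receptor did. The list of receptor chains, Janus kinases, STAT6 and their inhibitors had 16 measured genes, of which 4 rose and 1 fell (of all genes tested 4.65% rose and 3.39% fell), with a median log2 fold change of -0.071, close to that of all genes. Cish, which encodes the STAT-induced inhibitor CIS, was at 7.60, 8.02 and 7.47 CPM with IL-13, against 0.267, 0.356 and 0.0804 CPM in untreated cells. The lowest IL-13 library was thus far above the highest untreated one, and the log2 fold change was 5.04 ± 0.24 (adjusted p = 2.21e-18, edgeR). Socs1, whose product blocks Janus kinases, stood at 12.5, 11.7 and 13.1 CPM with IL-13, against 1.58, 2.14 and 1.74 CPM in untreated cells (log2 fold change 2.78 ± 0.12). Socs2, an inhibitor of growth hormone receptor signaling, stood at 12.2, 15.7 and 16.6 CPM, against 2.73, 2.08 and 1.74 CPM (log2 fold change 2.76 ± 0.15). Both groups of 3 were again apart. Il2rg, the common gamma chain that pairs with IL-4Rα in the type I receptor, rose as well, by 1.53 ± 0.068 on the log2 scale. Il13ra1, the chain that binds IL-13, fell: 8.76, 10.7 and 9.79 CPM with IL-13, against 21.9, 21.2 and 24.3 CPM in untreated cells (log2 fold change -1.21 ± 0.082, adjusted p = 3.17e-14, edgeR), a call that TREAT did not make.

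Il4ra stood at 136, 120.2 and 137 CPM with IL-13, against 199, 198 and 196 CPM in untreated cells. It was lower in each IL-13 library, with a log2 fold change of -0.59 ± 0.041 (adjusted p = 4.69e-13, edgeR), short of the fold threshold. Jak2, a kinase of the receptor, was just short of it on the other side, at a log2 fold change of 0.95 ± 0.044. The kinases Jak1 (-0.15), Jak3 (-0.064) and Tyk2 (0.092), Stat6 (-0.21), the adaptor Irs2 (-0.17), the phosphatases Ptpn6 (-0.32) and Ptpn2 (0.070), the STAT6 cofactor Parp14 (-0.078) and Socs3 (-0.13) were not called and lay between those values. Il13ra2, the decoy receptor, was not among the genes analysed.

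Most markers of alternative activation rose. Of 33 measured, 24 rose and 2 fell, against 4.65% and 3.39% of all genes, and their median log2 fold change was 1.94, against -0.024. Retnla, which encodes RELMα (also called Fizz1) and lies at chr16:48662895-48664824 on GRCm39, was at 219, 345 and 327 CPM with IL-13 and at 1.34, 0.772 and 1.18 CPM in untreated cells. A transcript at a low level in untreated cells was thus abundant with IL-13, although IL-13 replicate 1 was the lowest of its group, and the log2 fold change was 8.06 ± 0.28 (adjusted p = 1.54e-08, edgeR). Arg1, the arginase that turns arginine into ornithine and urea, lies at chr10:24791118-24803817 and was at 625, 686 and 740.3 CPM with IL-13 and 6.85, 17.5 and 19.9 CPM in untreated cells. Here the spread was among the untreated libraries, of which replicate 1 was the lowest, and the log2 fold change was 5.54 ± 0.30 (adjusted p = 4.33e-07, edgeR). Rnase2a, a ribonuclease of the eosinophil type, stood at 12.2, 20.9 and 22.5 CPM, against 0.0535, 0.119 and 0.0536 CPM (log2 fold change 7.91 ± 0.37).

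Pdcd1lg2, which encodes the checkpoint ligand PD-L2, was at 14.2, 10.5 and 11.4 CPM with IL-13, against 0.0535, 0.178 and 0.161 CPM in untreated cells, where a few counts per library were seen. Its log2 fold change was 6.50 ± 0.25 (adjusted p = 2.39e-20, edgeR). Ccl17, a ligand of CCR4 on Th2 cells, had 142 counts over the IL-13 libraries and 0 over the untreated ones. Set against 3 counts, taken as the floor for a group at 0, it was at least 48.1-fold higher, and at 1.52, 1.35 and 1.15 CPM it stayed a low transcript. Ccl22, the other CCR4 ligand, was at 9.06, 9.06 and 8.78 CPM with IL-13 and 0.214, 0.594 and 0.750 CPM in untreated cells, a log2 fold change of 4.11 ± 0.23. Mgl2, a lectin for galactose-type sugars, rose by 5.15 ± 0.21 on the log2 scale, the ribonuclease Ear2 by 4.36 ± 0.16 and Cdh1, which encodes the adhesion protein E-cadherin, by 4.37 ± 0.23.

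Several markers that untreated BMDMs already made in quantity rose by smaller factors. Cd36, a scavenger receptor for oxidised lipids and fatty acids, was at 2944, 3183 and 3425 CPM with IL-13, against 1246, 1201 and 1175 CPM in untreated cells (log2 fold change 1.40 ± 0.045). Mrc1, the mannose receptor CD206, was at 1699.6, 1764 and 1869 CPM, against 575, 623 and 612 CPM (log2 fold change 1.56 ± 0.081). Clec7a, the beta-glucan receptor Dectin-1, was at 806, 836 and 853 CPM, against 349, 333 and 319.5 CPM (log2 fold change 1.32 ± 0.037). In each of the 3 genes the replicates of a group lay close together and the groups well apart. Chil3, which encodes the chitinase-like protein Ym1, stood at 175, 213 and 212 CPM with IL-13, against 98.7, 91.99 and 86.99 CPM in untreated cells, a log2 fold change of 1.11 ± 0.091. Its relative Chil4 rose by 1.11 ± 0.20 on the log2 scale. TREAT called neither, and the call of Chil4 was lost without untreated replicate 3. The remaining markers that rose were Flt1, a VEGF receptor (log2 fold change 2.71 ± 0.081), the integrin chain Itgb3 (2.52 ± 0.12), fibronectin, Fn1 (2.10 ± 0.19), the kinase gene Matk (1.82 ± 0.070) and genes described below (Slc7a2, Egr2, Irf4, Klf4 and Ppargc1b). Socs1 is on this list as well.

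The 2 markers that fell were Cd163, the receptor for haemoglobin-haptoglobin complexes, and Alox15, the 12/15-lipoxygenase. Cd163 was at 10.8, 13.5 and 11.3 CPM with IL-13, against 25.5, 26.7 and 24.1 CPM in untreated cells (log2 fold change -1.10 ± 0.073), and was not called by TREAT. Alox15 stayed under 1 CPM in every library, with 0.0596, 0.137 and 0.218 CPM, against 0.508, 0.653 and 0.268 CPM (adjusted p = 0.0308, edgeR). Its call was lost under TREAT and without any 1 of 4 libraries: IL-13 replicates 1 and 2 and untreated replicates 1 and 2. Markers not called were Myc (log2 fold change 0.79 ± 0.089), the transglutaminase Tgm2 (0.60 ± 0.060), Clec10a (0.53 ± 0.10), Ccl24 (0.52 ± 0.28), the IL-1 receptor antagonist Il1rn (0.49 ± 0.083) and Pparg (0.26 ± 0.10). Cd209e, a relative of DC-SIGN, had 2 counts in each group. Inducible nitric oxide synthase, Nos2, the counterpart of arginase in classically activated macrophages, had 4 counts with IL-13 and 2 without (ratio 2.03, 95% interval 0.291 to 22.5, counting error only), and Il6 had 4 and 3 counts (ratio 1.35, 95% interval 0.229 to 9.25).

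**Figure D2:**
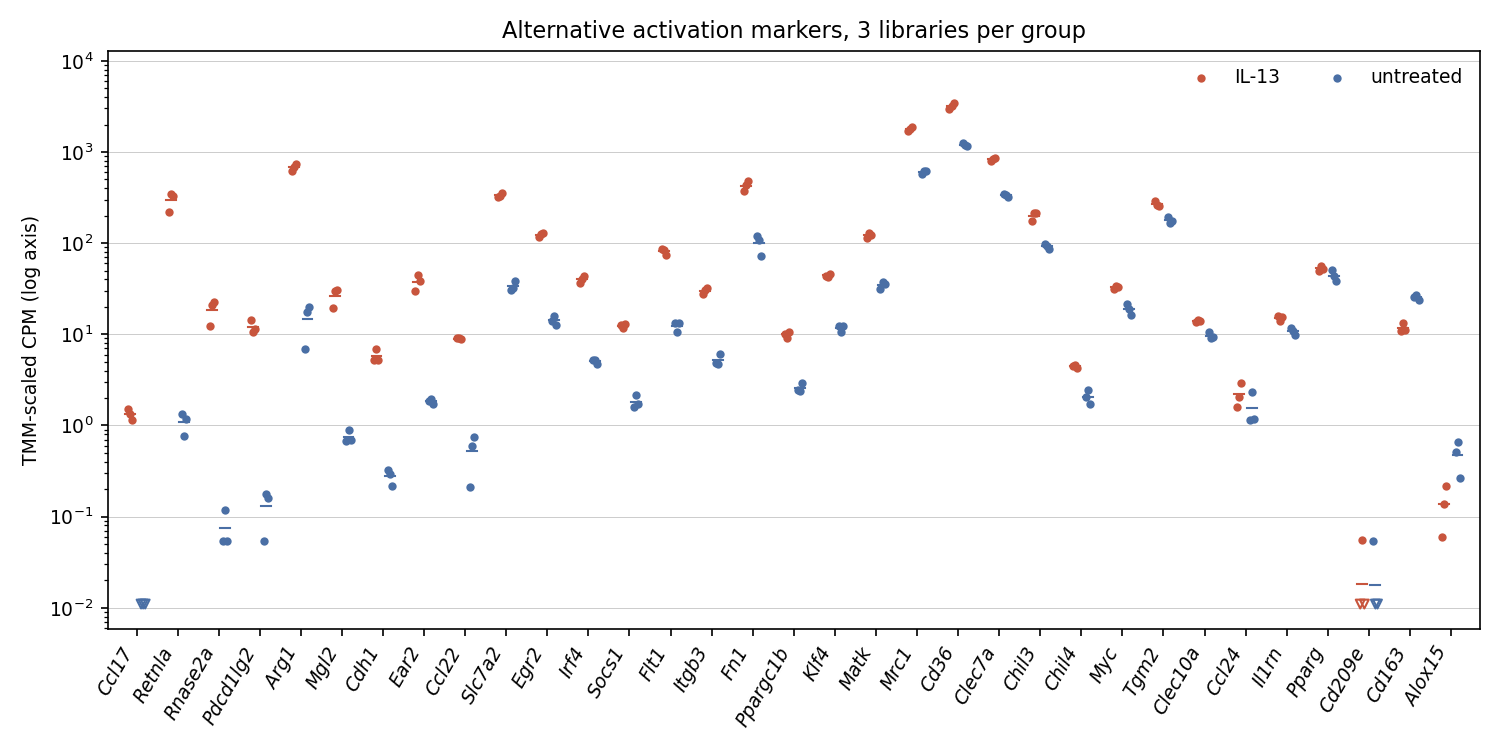
TMM-scaled CPM of the 33 measured markers of alternative activation on a log axis, ordered by log2 fold change, with 1 point per library (red, IL-13; blue, untreated; 3 each), a short line at the group mean and an open triangle at the foot for a library with 0 counts. The groups are apart for 30 markers and overlap for Ccl24, Pparg and Cd209e, and the abundant markers Cd36, Mrc1 and Clec7a sit at the top with small gaps between groups.

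The upstream sequence of the genes that rose was searched for TTC and GAA with 4 bases of any kind between them, the spacing preferred by STAT6, and for TTC and GAA with 3 bases between them, the spacing of most other STAT factors. Each reads the same on both strands, the 2 were counted separately, and the window was the 300 bases before the start of the gene's canonical transcript in GENCODE vM39 on GRCm39. The 4-base spacing was present in 6.81% of the 16245 windows of tested genes, in 8.19% of the 757 of genes that rose and in 5.50% of the 545 of genes that fell. Among the 27 genes that rose on the receptor and marker lists it was present in 8 (29.6%), and the 3-base spacing in 3 (11.1%), against 8.09% of all windows. The 8 were Arg1, Ccl17, Cish, Clec7a, Irf4, Pdcd1lg2, Retnla and Socs1, which has 3 matches. Of the other most changed genes, Itgax and Rmi2, which rose, and Cd28 and Gpr34, which fell, also had a match. A match describes these letters and shows no binding. The 27 list genes were on lists written with these data known and then chosen for their rise, so their share is no test. The match of Arg1 is not printed, since its surroundings lie in the first exon of another Arg1 transcript. The other 4-base matches of the lists and that of Itgax are printed in capitals, 5′ to 3′ on the gene's strand, so that the varied inner bases and flanks can be compared.
Retnla (chr16:48662787-48662876, plus strand): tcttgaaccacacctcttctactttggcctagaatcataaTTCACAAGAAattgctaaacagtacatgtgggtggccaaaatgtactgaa
Cish (chr9:107172959-107173048, plus strand): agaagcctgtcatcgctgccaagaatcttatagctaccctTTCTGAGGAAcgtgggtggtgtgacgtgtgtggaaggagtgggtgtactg
Socs1 (chr16:10603914-10604087, minus strand): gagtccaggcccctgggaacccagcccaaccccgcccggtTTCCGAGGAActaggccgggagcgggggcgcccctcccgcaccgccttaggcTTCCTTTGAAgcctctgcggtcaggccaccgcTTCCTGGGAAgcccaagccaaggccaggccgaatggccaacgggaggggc
Pdcd1lg2 (chr19:29388197-29388286, plus strand): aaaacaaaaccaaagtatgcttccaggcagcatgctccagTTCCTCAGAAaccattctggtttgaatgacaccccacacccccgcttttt
Ccl17 (chr8:95536887-95536976, plus strand): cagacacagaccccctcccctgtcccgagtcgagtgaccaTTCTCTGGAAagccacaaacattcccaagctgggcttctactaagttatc
Clec7a (chr6:129449824-129449913, minus strand): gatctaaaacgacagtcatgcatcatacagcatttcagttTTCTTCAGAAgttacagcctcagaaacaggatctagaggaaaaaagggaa
Irf4 (chr13:30932909-30932968, plus strand): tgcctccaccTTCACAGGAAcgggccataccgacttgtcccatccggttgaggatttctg
Itgax (chr7:127728555-127728644, plus strand): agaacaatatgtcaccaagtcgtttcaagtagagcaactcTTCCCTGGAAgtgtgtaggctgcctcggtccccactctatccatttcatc
The match lay nearest to the start in Retnla, 68 bases upstream of it, and in Itgax, 73 bases, and farthest in Irf4, 290 bases. In Socs1 the 3 matches began 172, 120 and 88 bases upstream.

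Among transcription factors tied to alternative activation, members of the same family moved in opposite directions. Of 23 measured, 7 rose and 3 fell. Egr2, a zinc finger factor, was at 117, 127 and 129 CPM with IL-13, against 13.99, 15.9 and 12.6 CPM in untreated cells (log2 fold change 3.13 ± 0.093, adjusted p = 2.64e-15, edgeR). Its relative Egr1, an immediate-early gene, was at 2.80, 2.75 and 2.35 CPM with IL-13, against 26.2, 20.1 and 22.2 CPM in untreated cells (log2 fold change -3.12 ± 0.44, adjusted p = 3.35e-04, edgeR). The 2 genes were thus at near levels in untreated cells and parted with IL-13, with no overlap between groups in either. Egr3 fell as well, at under 3 CPM throughout (log2 fold change -2.75 ± 0.85), a call lost under TREAT, with DESeq2 and without IL-13 replicate 1. Nr4a1, the orphan nuclear receptor Nur77, was at 1.19, 1.13 and 1.45 CPM, against 9.44, 7.63 and 7.53 CPM (log2 fold change -2.70 ± 0.19), and its relative Nr4a3 was at 0.894, 0.494 and 0.600 CPM, against 0.0535, 0.0594 and 0.107 CPM (log2 fold change 3.10 ± 0.61).

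Irf4, needed for many alternative activation genes in mouse macrophages, was at 36.2, 40.6 and 43.9 CPM with IL-13, against 5.24, 5.29 and 4.77 CPM in untreated cells, a log2 fold change of 2.98 ± 0.13. Batf3, an AP-1 type factor of dendritic cells that pairs with IRF4, rose by 2.76 ± 0.19 on the log2 scale, and the bHLH repressor Bhlhe40 by 2.21 ± 0.073. Klf4 (log2 fold change 1.92 ± 0.078), Nfil3 (1.89 ± 0.067) and the coactivator Ppargc1b (1.94 ± 0.15), which drives mitochondrial genes, made up the rest that rose. Over 21 AP-1 and immediate-early genes 4 rose and 4 fell, Ier3 being the other that rose (log2 fold change 1.33 ± 0.073) and Fosb the other that fell (-1.50 ± 0.60, under 1 CPM, its call lost under TREAT and without any 1 of 5 libraries). Without IL-13 replicate 1, 2 of this list fell. Tfec, a factor of the MiT family, was higher by 0.84 ± 0.051 on the log2 scale and Fosl2 by 0.48 ± 0.049, both short of the fold threshold.

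Arginine handling changed beyond arginase, with the transporter and the branch to creatine rising along with it. Of 24 measured genes of arginine and polyamine metabolism, 6 rose and 1 fell. Slc7a2, the cationic amino acid transporter CAT2 that brings arginine into the cell, was at 319.7, 329.9 and 358 CPM with IL-13, against 30.4, 32.1 and 38.8 CPM in untreated cells (log2 fold change 3.31 ± 0.085). Gatm, which makes the creatine precursor guanidinoacetate from arginine and glycine, was at 556, 582 and 578 CPM, against 67.9, 66.8 and 67.97 CPM (log2 fold change 3.08 ± 0.053, adjusted p = 8.24e-21, edgeR). Ass1, which remakes arginine from citrulline, was at 25.2, 32.9 and 35.6 CPM, against 4.20, 2.61 and 2.89 CPM (log2 fold change 3.26 ± 0.22). All 3 had tight replicates and wide gaps between groups. Eif5a, whose product carries the polyamine-derived amino acid hypusine, rose by 1.07 ± 0.035 on the log2 scale, and Arg2, the mitochondrial arginase, by 1.14 ± 0.19 at under 5 CPM. Smox, spermine oxidase, fell (log2 fold change -1.03 ± 0.052). TREAT called none of Eif5a, Arg2 and Smox, and single libraries ended the calls of Arg2 (IL-13 replicate 3) and Smox (IL-13 replicate 2).

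Pattern receptors of the cell surface split by gene. Of 20 measured C-type lectin receptors 3 rose, the markers Mgl2, Mrc1 and Clec7a, and 1 fell, against 4.65% and 3.39% of all genes. The gene that fell was Clec4n, which encodes Dectin-2 and was at 16.1, 17.1 and 18 CPM with IL-13, against 64.4, 69.2 and 61.5 CPM in untreated cells (log2 fold change -1.93 ± 0.054). Dectin-1 and Dectin-2, both receptors for fungal glycans, thus moved in opposite directions. Of 15 measured scavenger receptors, 3 rose and 1 fell. Marco was at 72.1, 67.2 and 88.8 CPM with IL-13, against 17.8, 14.2 and 17.9 CPM in untreated cells (log2 fold change 2.19 ± 0.19), and the oxidised LDL receptor Olr1 rose by 1.91 ± 0.22 at under 8 CPM. Cd36 and Cd163, given above, were the others. Fcgr2b, the inhibitory Fc receptor for IgG, was at 264, 276 and 288 CPM, against 48.6, 62.6 and 57.5 CPM (log2 fold change 2.30 ± 0.089), and was the only called gene of 8 Fc receptor genes measured.

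Chemokine genes changed in large part. Of 14 measured CC chemokine ligands, 9 rose and 2 fell, with a median log2 fold change of 1.48. Ccl5, which attracts T cells, monocytes and eosinophils, was at 78.6, 52 and 68.2 CPM with IL-13, against 3.42, 4.75 and 3.96 CPM in untreated cells (log2 fold change 4.04 ± 0.19). Ccl9, a monocyte attractant of the mouse and the most abundant of the list, was at 845, 930.1 and 1042 CPM, against 349, 332 and 312 CPM (log2 fold change 1.50 ± 0.068). Ccl3, the macrophage inflammatory protein 1α and a monocyte attractant like Ccl5, went the other way, at 9.60, 7.49 and 7.69 CPM with IL-13, against 41.1, 36.5 and 35.8 CPM in untreated cells (log2 fold change -2.19 ± 0.10, adjusted p = 8.78e-19, edgeR), and Ccl4, its close relative, fell too (-1.65 ± 0.18). Besides Ccl17 and Ccl22, Ccl6 rose (log2 fold change 1.45 ± 0.10), and so did the CCR2 ligands Ccl7 (2.24 ± 0.25), Ccl2 (1.67 ± 0.26) and Ccl12 (1.18 ± 0.47) and the Th2 attractant Ccl8 (2.33 ± 0.66). These CCR2 ligands and Ccl8 stayed under 8 CPM. TREAT did not call Ccl2, Ccl8 and Ccl12, and the calls of Ccl8 and Ccl12 were each lost without any 1 of 4 libraries, so that without IL-13 replicate 3 the list had 7 genes that rose.

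Of 12 measured CXC chemokine ligands, 3 rose and 2 fell, all of them low. Cxcl9 (0.477, 0.275 and 1.31 CPM with IL-13, against 0.107, 0.0594 and 0.0268 CPM in untreated cells) and Cxcl10 (0.358, 0.220 and 0.818 CPM, against 3.56, 1.96 and 2.14 CPM) both encode CXCR3 ligands known as interferon-induced, and Cxcl9 rose while Cxcl10 fell. Cxcl13 rose (log2 fold change 2.30 ± 0.76), as did Cxcl3 (1.12 ± 0.44), and the neutrophil attractant Cxcl1 fell (-1.40 ± 0.39), all at under 1 CPM. TREAT called none of these 3, and the calls of Cxcl3 and Cxcl13 were lost without any 1 of 6 and 3 libraries, so that 1 gene of the list rose without untreated replicate 1 or 3 or without IL-13 replicate 3. Of 12 chemokine receptors, 3 rose and 2 fell. Cx3cr1, the fractalkine receptor of resident and patrolling monocytes and macrophages, was at 207, 211 and 211 CPM with IL-13, against 516, 545 and 545 CPM in untreated cells (log2 fold change -1.35 ± 0.035, adjusted p = 4.59e-25, edgeR). Ccr3, the eotaxin receptor, was at 29.8, 34.9 and 40.3 CPM, against 9.60, 9.38 and 7.45 CPM (log2 fold change 1.99 ± 0.10). Ccr1 (log2 fold change 1.49 ± 0.13) and Ccr7 (1.54 ± 0.32) rose and Cxcr3 fell (-1.37 ± 0.16), Ccr7 and Cxcr3 not called by TREAT, and Cxcr2 was higher by 0.62 ± 0.17, short of the fold threshold.

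Of 22 measured genes of multinucleated macrophages and osteoclasts, 9 rose and none fell, with a median log2 fold change of 0.22. Below the fold threshold, 6 members had a negative change at an adjusted p under 0.05. At any fold, 3761 of all 16306 genes tested had such a change. Ocstamp and Dcstamp encode membrane proteins needed for macrophage fusion in the mouse, and Ocstamp was at 10.1, 12.2 and 12.1 CPM with IL-13, against 0.909, 1.10 and 1.07 CPM in untreated cells (log2 fold change 3.48 ± 0.22). Dcstamp rose by 1.82 ± 0.17 on the log2 scale. Atp6v0d2, a subunit of the proton pump that also takes part in fusion, was at 329, 399.6 and 405 CPM, against 39.1, 51.8 and 42.6 CPM (log2 fold change 3.09 ± 0.15). The rest were Cdh1 and Itgb3, the protease genes Ctsk (log2 fold change 1.89 ± 0.17) and Mmp9 (1.83 ± 0.080), the phosphatase Acp5 (1.76 ± 0.080) and the kinase Src, at the threshold (1.00 ± 0.078), whose call was lost in 6 of the alternatives tried. All 5 measured genes of the osteoclast marker list (Ocstamp, Acp5, Mmp9, Ctsk and Dcstamp) rose, and their summed level was 158.8 to 193.2 CPM with IL-13, against 45.2 to 52.1 CPM in untreated cells.

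Integrin chains moved in both directions: of 19 measured leukocyte chains 4 rose and 5 fell. Itgax, which encodes CD11c and lies at chr7:127728668-127749829, was at 1011, 1288 and 1409 CPM with IL-13, against 50.7, 56.2 and 57.7 CPM in untreated cells (log2 fold change 4.49 ± 0.16, adjusted p = 1.74e-08, edgeR). It became one of the abundant surface genes of these cells, with IL-13 replicate 1 the lowest of its group. Itgad, the CD11d chain next to it in the beta2 family, was at 7.81, 8.79 and 9.30 CPM, against 0.802, 0.861 and 0.482 CPM (log2 fold change 3.59 ± 0.26), and Itgb8, an activator of latent TGF-β, rose by 2.61 ± 0.53 at under 2 CPM. Itga4, a chain of the VCAM-1 receptor VLA-4, was at 107, 123 and 128 CPM with IL-13, against 271, 300.4 and 285 CPM in untreated cells (log2 fold change -1.26 ± 0.061). Itgb7, another chain it pairs with (log2 fold change -1.10 ± 0.13), Itga9 (-1.20 ± 0.073), Itga6 (-1.01 ± 0.034) and Itgal (-1.01 ± 0.035) fell too, but TREAT called none of Itgb7, Itga6 and Itgal. The calls of Itga6 and Itgal were lost without untreated replicate 3, and those of Itga6 and Itgb7 without IL-13 replicate 2, which left 3 that fell in each case.

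Of 33 matrix proteins and proteases, 4 rose and 3 fell. Mmp12, the macrophage elastase, was at 614, 899 and 923 CPM with IL-13, against 159, 192 and 167 CPM in untreated cells (log2 fold change 2.23 ± 0.15). The collagenase Mmp13 rose by 1.33 ± 0.086 on the log2 scale, along with Mmp9 and Fn1. Those that fell were the basement membrane collagens Col4a1 (log2 fold change -1.08 ± 0.19, not called by TREAT or without IL-13 replicate 2 or untreated replicate 2) and Col4a2 (-1.49 ± 0.19, not called by TREAT) and the fibril-associated Col14a1 (-2.51 ± 0.33). Without untreated replicate 3 the list had 6 that fell. Timp1, an inhibitor of matrix proteases, was higher by 0.97 ± 0.17 on the log2 scale, and Thbs1, an activator of TGF-β, was at 62.1, 38.2 and 55.4 CPM, against 113, 80.97 and 57.6 CPM, with overlapping groups.

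Genes of DNA replication rose almost without exception. Of 45 measured genes of DNA replication and S phase 41 rose and none fell, with a median log2 fold change of 1.72, and all 45 had a positive change at an adjusted p under 0.05. Rrm2, the regulated subunit of ribonucleotide reductase, was at 98.8, 97.8 and 106 CPM with IL-13, against 17.1, 18.6 and 20.8 CPM in untreated cells (log2 fold change 2.42 ± 0.063, adjusted p = 6.07e-25, edgeR). Mcm5, a subunit of the replicative helicase, was at 155, 161 and 160.4 CPM, against 29.9, 32.2 and 34.7 CPM (log2 fold change 2.30 ± 0.060), and Mcm6 and Mcm3 rose by 1.75 ± 0.048 and 1.57 ± 0.049. In each of these 4 genes the lowest IL-13 library was more than 2-fold above the highest untreated one. Ccne1 and Ccne2, the E cyclins of S phase entry, rose by 2.76 ± 0.13 on the log2 scale and 2.52 ± 0.13, and Pcna, the sliding clamp, by 1.31 ± 0.052.

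Mitotic genes moved in the same direction but less. Of 35 measured 15 rose and none fell, with a median of 0.95, and 33 had a positive change at an adjusted p under 0.05. Mad2l1, of the spindle checkpoint, rose by 1.42 ± 0.068, and Aurkb, the Aurora B kinase, was at 79.6, 82.03 and 85.3 CPM with IL-13, against 25.3, 30.9 and 35.01 CPM in untreated cells (log2 fold change 1.44 ± 0.078). Top2a was at 392, 423 and 440.0 CPM, against 129.6, 170.3 and 190.0 CPM (log2 fold change 1.36 ± 0.13, not called by TREAT), and Mki67, the gene of the proliferation antigen Ki-67, was at 564, 609 and 649 CPM, against 264, 349 and 389 CPM (log2 fold change 0.86 ± 0.13, not called). In these genes the untreated libraries were spread, with replicate 1 the lowest in each. The mitotic count followed that spread: 10 rose without untreated replicate 1 and 19 without untreated replicate 3, and TREAT called 2, where it called 35 of the replication genes. Kif11 (log2 fold change 1.16 ± 0.075) and Ttk (1.32 ± 0.13) were called but not by TREAT. Of 24 genes of D cyclins, cell cycle inhibitors and p53 targets 2 rose, against 4.65% of all genes. They were the pocket protein gene Rbl1 (log2 fold change 1.82 ± 0.074) and Cdkn2c (1.04 ± 0.13, not called by TREAT or without untreated replicate 1). Ccnd1, the cyclin of G1, stood at a log2 fold change of 0.61 ± 0.073 and was not called.

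**Figure D3:**
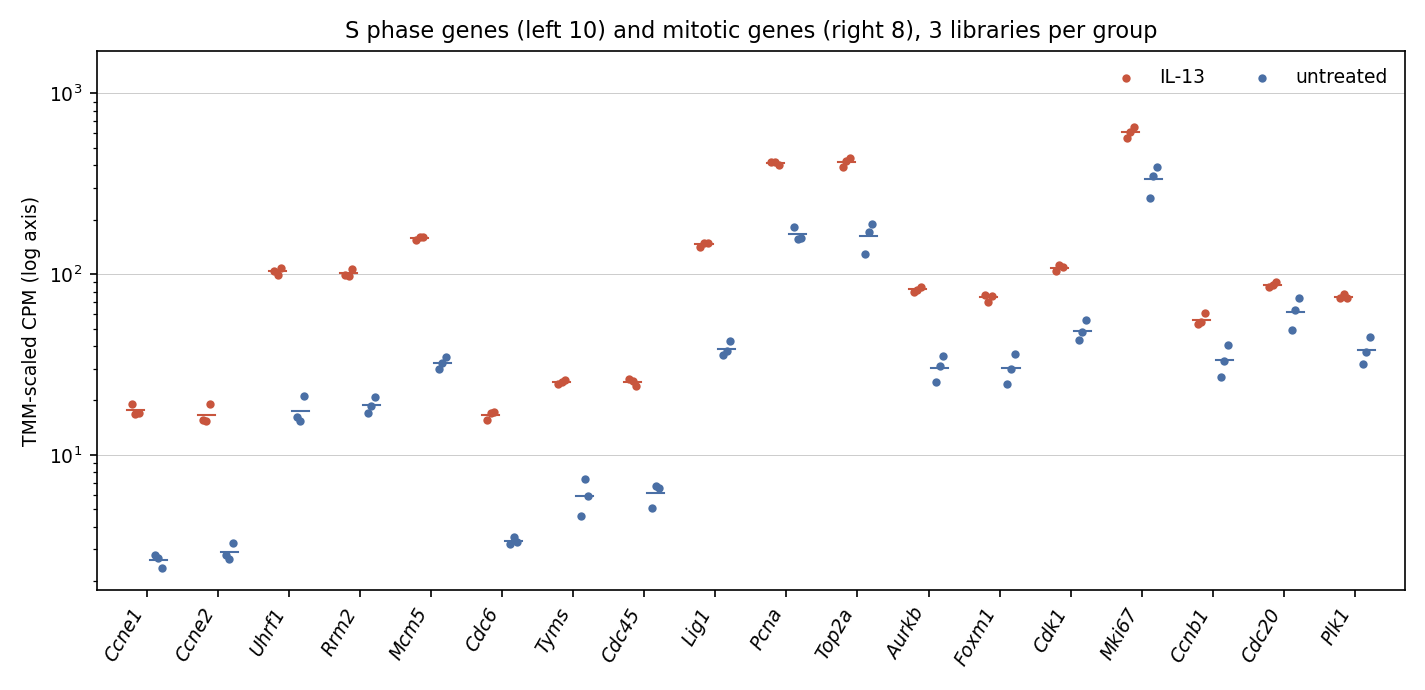
TMM-scaled CPM on a log axis of 10 S phase genes (left) and 8 mitotic genes (right), with 1 point per library (red, IL-13; blue, untreated; 3 each) and a short line at the group mean. The groups are far apart for the S phase genes, while the untreated libraries of the mitotic genes are spread upward toward the IL-13 libraries.

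The gene with the strongest evidence of change, by the F statistic of the test, was Tfrc, the transferrin receptor that takes up iron. It lies at chr16:32427556-32451612 and was at 509.8, 529.8 and 540.1 CPM with IL-13, against 92.6, 91.1 and 93.04 CPM in untreated cells (log2 fold change 2.51 ± 0.042, adjusted p = 6.78e-30, edgeR). Slc40a1, the iron exporter ferroportin, was at 64.96, 93.3 and 94.1 CPM, against 305, 313 and 286 CPM (log2 fold change -1.84 ± 0.16). The uptake gene was thus higher and the export gene lower, with no overlap in either. Heph, a copper ferroxidase, fell at around 1 CPM (log2 fold change -1.92 ± 0.45). With Cd163 this made 1 gene that rose and 3 that fell of 20 iron genes, against 4.65% and 3.39% of all genes. TREAT called neither Heph nor Cd163. Fth1, the ferritin heavy chain and the most abundant of the list, stood at 8733, 7532 and 7937 CPM, against 8126, 7923 and 7929 CPM, with overlapping groups. Alas1, the first enzyme of haem synthesis, was at 376, 393 and 419.8 CPM with IL-13, against 107, 106 and 109 CPM in untreated cells (log2 fold change 1.89 ± 0.040).

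The other genes with the largest F statistics were Tmem26, Gpc1, Gatm and Selenop. Tmem26, a membrane protein gene, was at 97.4, 103 and 113 CPM with IL-13, against 10.4, 10.3 and 10.8 CPM in untreated cells (log2 fold change 3.32 ± 0.069). Gpc1, a cell surface heparan sulfate proteoglycan, was at 165, 178 and 192 CPM, against 22.4, 20.5 and 18.5 CPM (log2 fold change 3.12 ± 0.063). Selenop, a secreted selenium carrier, was the one of them that fell, at 866, 834 and 849 CPM, against 2274, 2241 and 2263 CPM (log2 fold change -1.41 ± 0.030). The replicates of each gene differed by little compared with the gap between groups.

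Lipid and energy genes moved by less than the fold threshold for the most part. Of 23 cholesterol synthesis genes 5 rose and none fell, with a median of 0.83, and 21 had a positive change at an adjusted p under 0.05. Sqle, squalene epoxidase, was at 61.2, 64.7 and 70.7 CPM with IL-13, against 27.5, 30.7 and 32.5 CPM in untreated cells (log2 fold change 1.12 ± 0.067), and Hmgcs1 (1.11), Cyp51 (1.04), Idi1 (1.02) and Fdps (1.17) lay near it. TREAT called 0 of them, and 3 rose without untreated replicate 1 or without IL-13 replicate 3, while Idi1 was also not called without IL-13 replicate 2 or untreated replicate 2. The 28 measured subunits of oxidative phosphorylation all had a positive change at an adjusted p under 0.05 and none was called, with a median of 0.55 and a range of 0.24 to 0.999. Atp5b, of the ATP synthase, stood at 759.7, 805 and 811 CPM, against 425, 431 and 432 CPM (log2 fold change 0.88 ± 0.032). Of 27 genes of fatty acid oxidation and lipid uptake, Cd36 and Ppargc1b rose, against 4.65% of all genes, and none fell. Of 16 LXR targets 1 rose, the desaturase Scd2 (log2 fold change 1.57 ± 0.23, not called by TREAT), and 3 fell: Apoc1 (-2.75 ± 0.45), the LDL receptor ligase Mylip (-1.55 ± 0.056) and the transporter Abca9 (-1.37 ± 0.041). Hypoxia and glycolysis genes gave 1 of 25 that rose (4.65% of all genes did), the phosphofructokinase Pfkp (log2 fold change 1.13 ± 0.045), and 3 that fell (3.39% of all genes did), Egln3 (-1.89 ± 0.23), Ndrg1 (-1.81 ± 0.090) and Vegfa (-1.69 ± 0.12), while Hif1a stood at -0.25 ± 0.059.

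Antigen presentation by MHC class II rose in part. Of 15 measured genes 7 rose and 1 fell, with a median of 0.95. Cd74, the invariant chain, was at 1453, 1102 and 1229 CPM with IL-13, against 392, 349.8 and 429 CPM in untreated cells (log2 fold change 1.69 ± 0.18). H2-Ab1, a class II beta chain, was at 345, 265 and 278 CPM, against 116, 104 and 116 CPM (log2 fold change 1.40 ± 0.16), and Ciita, the master regulator of these genes, at 30.9, 30.3 and 35.1 CPM, against 12.8, 11.5 and 13.98 CPM (log2 fold change 1.33 ± 0.16). Each IL-13 library was above each untreated one, and IL-13 replicate 1, which stood apart on the second component, was the highest for Cd74 and H2-Ab1. The count of 7 was the same without that library. H2-DMa, a chain of the peptide editor, rose by 1.44 ± 0.058 on the log2 scale, H2-Aa by 1.23 ± 0.15, H2-Eb1 by 1.17 ± 0.15 and Ifi30, a lysosomal thiol reductase, by 1.17 ± 0.073. H2-Ob, of the inhibitory H2-O pair, fell at under 2 CPM (log2 fold change -1.85 ± 0.56), a call lost under TREAT and without IL-13 replicate 3. TREAT called Cd74 and H2-DMa alone.

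Ligands of T cell activation moved in both directions. Of 15 costimulatory and checkpoint ligands 3 rose and 2 fell. Cd86, a ligand of CD28, was at 7.87, 7.96 and 5.89 CPM with IL-13, against 21.5, 21.4 and 13.7 CPM in untreated cells (log2 fold change -1.38 ± 0.20, not called by TREAT), and Icosl, the ICOS ligand, at 4.95, 5.79 and 3.79 CPM, against 18.9, 18.3 and 17.9 CPM (log2 fold change -1.92 ± 0.12). Pdcd1lg2 rose, as given above, with the galectin gene Lgals3 (log2 fold change 1.03 ± 0.044) and the OX40 ligand Tnfsf4 (2.69 ± 0.65, under 1 CPM), neither called by TREAT. Of 34 type I interferon-stimulated genes 2 rose and 2 fell, against 4.65% and 3.39% of all genes, with a median of 0.066. Irf7 was at 196, 102 and 95.1 CPM with IL-13, against 91.6, 48.99 and 51.3 CPM in untreated cells. Replicate 1 was the highest in both groups, and the call of Irf7 (log2 fold change 1.03 ± 0.33) was lost without IL-13 replicate 1 or either of untreated replicates 2 and 3. That of Usp18 (log2 fold change 1.05 ± 0.15) was lost without untreated replicate 2 or 3, so that without either none of the list rose, and TREAT called neither gene. Those that fell were Cxcl10 and Ifit3b (log2 fold change -1.34 ± 0.33), whose call was lost under TREAT and without untreated replicate 1. Of 17 guanylate-binding and immunity-related GTPases, Gbp2b rose at under 1 CPM (log2 fold change 2.60 ± 0.84), a call lost under TREAT and without either IL-13 replicate 3 or untreated replicate 3.

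Inflammatory genes moved in both directions. Of 29 measured inflammatory genes 9 fell and 7 rose, with a median of -0.26. Nlrp3, the inflammasome sensor, was at 44.3, 43.5 and 43.9 CPM with IL-13, against 108, 103 and 101 CPM in untreated cells (log2 fold change -1.24 ± 0.045). Nfkbiz, an atypical IκB, was at 14.7, 13.5 and 10.7 CPM, against 54.3, 48.3 and 48.9 CPM (log2 fold change -1.97 ± 0.083), and Tnf at 10.3, 9.69 and 9.68 CPM, against 21.6, 20.8 and 20.4 CPM (log2 fold change -1.08 ± 0.10, not called by TREAT). Their values in the 2 groups were far apart for the small spread within each. Il10, an anti-inflammatory cytokine, fell as well (log2 fold change -1.19 ± 0.19, not called by TREAT), as did Marcksl1 (-1.04 ± 0.057, not called by TREAT or without IL-13 replicate 2 or untreated replicate 1), Ccl3, Ccl4, Cxcl1 and Cxcl10. The 7 that rose were Ccl5, Cxcl9, Ccl2, Cxcl3, Acod1, which makes itaconate (log2 fold change 1.26 ± 0.24, not called by TREAT), Il1a (1.20 ± 0.36, not called by TREAT or without IL-13 or untreated replicate 3) and the acute phase gene Saa3 (1.37 ± 0.39, not called by TREAT or without any 1 of 5 libraries). The number that rose was 4 without untreated replicate 3 or without IL-13 replicate 3. Il1b stood at 2.36, 1.92 and 5.10 CPM, against 5.38, 3.53 and 2.81 CPM, with overlapping groups. Relb, of the alternative NF-κB pathway, stood at a log2 fold change of -0.24 ± 0.047. Saa1 had 7 counts with IL-13 and 1 without (ratio 7.12, 95% interval 0.914 to 320.7, counting error only) and was called higher, a call lost in 9 of the alternatives tried.

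Of 24 Toll-like receptors and adaptors none rose and 4 fell, with a median of -0.33. A negative change at an adjusted p under 0.05 was seen in 14, against 3 with a positive one. Of all 16306 genes tested, 3761 had such a negative change and 3903 a positive one. Tlr2, the receptor for bacterial lipopeptides, was at 75.2, 74.2 and 79.2 CPM with IL-13, against 212, 202 and 210.1 CPM in untreated cells (log2 fold change -1.45 ± 0.040, adjusted p = 2.99e-24, edgeR). Cd14, the co-receptor for LPS, was at 163, 139 and 137 CPM, against 304, 288 and 291 CPM (log2 fold change -1.01 ± 0.067). Tlr9, for bacterial DNA (log2 fold change -1.12 ± 0.11), and Tlr5, for flagellin and at around 1 CPM (-1.24 ± 0.27), fell as well. TREAT called Tlr2 alone, and the call of Cd14 was lost without any 1 of IL-13 replicates 2 and 3 and untreated replicate 1. Tlr4 stood at a log2 fold change of 0.31 ± 0.058 and was not called. In the IL-1 family, of 19 genes 4 rose and 2 fell. Il1rl2, the IL-36 receptor, was at 26.2, 28.7 and 29.2 CPM with IL-13, against 1.82, 2.20 and 2.57 CPM in untreated cells (log2 fold change 3.67 ± 0.11). The IL-33 receptor Il1rl1 rose by 2.47 ± 0.74 on the log2 scale with an untreated library at 0, a call lost with DESeq2, under TREAT and without IL-13 replicate 2 or 3, and Il1r1 by 1.66 ± 0.33, not called by TREAT. Il18r1 fell (log2 fold change -1.96 ± 0.82), a call lost in 9 of the alternatives tried.

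Feedback inhibitors of MAP kinase signaling gave 1 that rose and 3 that fell of 14. Dusp4, a nuclear phosphatase of ERK, was at 108, 102 and 98.3 CPM with IL-13, against 26.5, 24.7 and 24.2 CPM in untreated cells (log2 fold change 2.03 ± 0.056). Dusp6, the cytoplasmic ERK phosphatase, fell (log2 fold change -1.15 ± 0.069, not called by TREAT), as did Spry2 (-1.58 ± 0.13) and Spred3 (-1.04 ± 0.10), the last a call lost under TREAT and without IL-13 replicate 3 or untreated replicate 1. Gab1, an adaptor of growth factor receptors, stood at a log2 fold change of -0.83 ± 0.052, short of the fold threshold.

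Several surface receptors fell. Adgre4, an adhesion receptor of the F4/80 family, was at 8.17, 10.2 and 10.6 CPM with IL-13, against 71.97, 73.1 and 61.7 CPM in untreated cells (log2 fold change -2.83 ± 0.14). The nucleotide receptors P2ry13 and P2ry12, both known from microglia, were at 4.35, 3.73 and 4.69 CPM, against 21.5, 20.2 and 19.5 CPM (log2 fold change -2.26 ± 0.10), and at 8.82, 9.58 and 11.2 CPM, against 38.4, 39.1 and 40.1 CPM (log2 fold change -1.99 ± 0.075). Gpr34, a receptor for lysophosphatidylserine, fell (log2 fold change -2.41 ± 0.15). The purinergic list as a whole gave 2 that fell and 4 that rose of 18. Those that rose were P2ry1 (log2 fold change 1.74 ± 0.13), the adenosine receptors Adora2a (2.18 ± 0.33) and Adora2b (1.14 ± 0.11) and P2rx5 (1.54 ± 0.43). TREAT did not call Adora2b and P2rx5.

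Among called genes with a gene symbol, 100 counts or more on average and no overlap between groups, Ighm had the most negative log2 fold change. Ighm, the constant region of the IgM heavy chain, was at 2.12, 1.70 and 2.78 CPM with IL-13, against 18.9, 26.1 and 24.8 CPM in untreated cells (log2 fold change -3.40 ± 0.20). The B cell genes Cd79a and Cd79b were not called. F13a1, the coagulation factor XIII chain that macrophages make, was at 108, 87.2 and 90.96 CPM, against 483, 528 and 564 CPM (log2 fold change -2.46 ± 0.11). Adgb, androglobin, was at 37.03, 33.4 and 33.2 CPM, against 182, 186 and 186 CPM (log2 fold change -2.42 ± 0.11). All 3 had wide gaps between the groups. Cd28, better known from T cells (log2 fold change -2.28 ± 0.13), the RNA-binding protein gene Samd4 (-2.76 ± 0.17), the sialic acid hydroxylase Cmah (-2.75 ± 0.24) and Notch4 (-2.17 ± 0.18) fell too. Gm15568, a processed pseudogene, and Gm10800, not in the annotation used, fell as well (log2 fold change -2.43 ± 0.20 and -2.41 ± 0.21), and reads of near-identical copies may have been assigned to them.

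Coagulation genes split. Of 18 measured 3 rose and 2 fell. F7, the factor VII that starts the extrinsic pathway with tissue factor, was at 12.1, 13.01 and 13.1 CPM with IL-13, against 1.15, 0.920 and 0.723 CPM in untreated cells (log2 fold change 3.77 ± 0.19), and F10, which it activates, at 24.6, 27.7 and 31.6 CPM, against 2.19, 1.99 and 2.30 CPM (log2 fold change 3.69 ± 0.12). These 2 enzymes were near 1 and 2 CPM without the cytokine. Anxa2, a docking protein for plasminogen, rose by 1.24 ± 0.038, and F5 fell with F13a1 (log2 fold change -1.14 ± 0.28), a call lost under TREAT and without IL-13 replicate 3 or untreated replicate 1. Without IL-13 replicate 1, 4 of the list fell. C3, the central complement protein, was at 499.9, 413 and 505 CPM with IL-13, against 109, 95.5 and 98.3 CPM in untreated cells (log2 fold change 2.23 ± 0.10), and with Itgax, Cfb (2.44 ± 0.54) and C1ra (1.18 ± 0.12) it made 4 that rose of 20 complement genes. C4b fell (log2 fold change -1.24 ± 0.43). TREAT called neither Cfb, C1ra nor C4b, and C4b was not called without any 1 of IL-13 replicates 2 and 3 and untreated replicate 1.

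Eicosanoid synthesis genes included none that rose and 4 that fell of 18, with a median of 0.063. At any fold, 7 had a positive change at an adjusted p under 0.05 and 6 a negative one. Hpgd, which inactivates prostaglandins, was at 272, 237 and 258 CPM with IL-13, against 726, 737 and 799 CPM in untreated cells (log2 fold change -1.56 ± 0.083), and Hpgds, which makes prostaglandin D2, at 127, 129 and 125 CPM, against 287, 276 and 272 CPM (log2 fold change -1.13 ± 0.036). Alox5, the 5-lipoxygenase of leukotriene synthesis, fell at under 11 CPM (log2 fold change -1.20 ± 0.14) and was not called by TREAT, and Alox15 was the other. Of 23 growth factors and repair signals 1 rose and 2 fell, against 4.65% and 3.39% of all genes. Vegfa was at 28.9, 28.3 and 23.3 CPM, against 96.5, 84.4 and 78.2 CPM (log2 fold change -1.69 ± 0.12), Bmp2 fell (-1.13 ± 0.25) and Vegfc rose by 1.22 ± 0.30, and TREAT called neither Bmp2 nor Vegfc, nor was Bmp2 called without untreated replicate 1. Vegfa was lower while its receptor gene Flt1 was higher, each with no overlap between groups.

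The remaining genes of largest increase were scattered in role. Rasgrp1, an activator of Ras, was at 21.6, 21.9 and 22.1 CPM with IL-13, against 1.07, 0.594 and 0.750 CPM in untreated cells (log2 fold change 4.75 ± 0.15). Myrf, a transcription factor known from myelinating cells, was at 8.11, 9.17 and 10.1 CPM, against 0.160, 0.178 and 0.268 CPM (log2 fold change 5.47 ± 0.27), and Rmi2, of the complex that resolves DNA crossovers, rose by 4.05 ± 0.25. Gm8113, whose role is not annotated here, rose by 5.57 ± 0.29 on the log2 scale. Of 21 antioxidant and Nrf2 target genes the cystine transporter Slc7a11 rose (log2 fold change 1.91 ± 0.11) and Gpx3 fell (-1.44 ± 0.15), against 4.65% and 3.39% of all genes. Of 23 genes of the unfolded protein and ATF4 responses 4 rose and none fell: the serine synthesis gene Psat1 (log2 fold change 1.40 ± 0.082) and the chaperone genes Sdf2l1 (1.25 ± 0.048), Calr (1.11 ± 0.038) and Pdia4 (1.01 ± 0.039), the last not called by TREAT or without IL-13 replicate 3.

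Some groups had few or no called genes. None of 26 ribosome biogenesis genes and none of 12 housekeeping genes was called, with medians of 0.064 and 0.24. A positive change at an adjusted p under 0.05 was seen in 9 and 7 of them, and in 3903 of all 16306 genes tested. Of 35 lysosomal genes 2 rose, Ctsk and Atp6v0d2, and none fell. At any fold, 16 of them had a positive and 16 a negative change at an adjusted p under 0.05. Of 23 macrophage identity genes none rose and 2 fell, Cx3cr1 and Cd14. At any fold, 12 of these had a negative change at an adjusted p under 0.05 and 8 a positive one. Of all 16306 genes tested, 3761 had such a negative change. Csf1r, the M-CSF receptor, was at 4411, 4056 and 4303 CPM with IL-13, against 5788, 5690.1 and 5888 CPM in untreated cells, a log2 fold change of -0.44 ± 0.032 (adjusted p = 1.25e-13, edgeR), short of the fold threshold. A heatmap list that the study drew from these libraries held 21 measured genes, of which 10 rose and none fell (6 rose by TREAT), and since it was chosen on these samples its direction is not independent evidence.

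**Figure D4:**
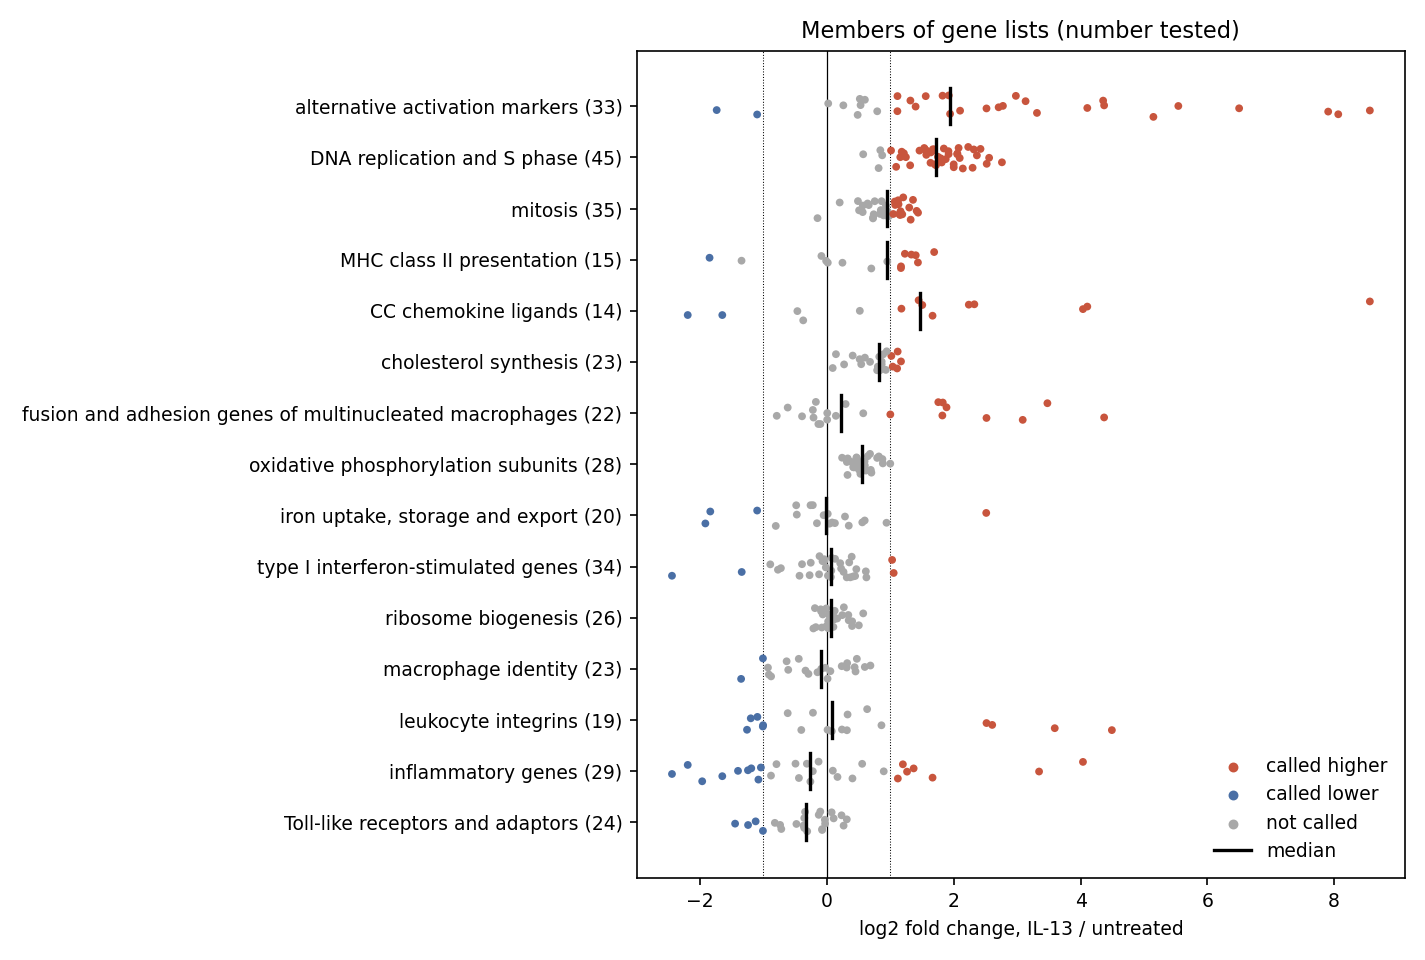
Log2 fold change of IL-13 over untreated for every measured member of 15 gene lists, with 1 point per gene (red, called higher; blue, called lower; grey, not called), a black bar at the list's median and the number of genes tested in brackets. The points farthest to the right, in the rows of alternative activation and CC chemokines, are both Ccl17, at 0 counts in untreated cells, whose fitted value is no measure of size. The S phase genes cluster around 1.72 and the oxidative phosphorylation genes around 0.55, below the threshold at 1.

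The cells carried the markers of their label. All 10 macrophage markers were measured and none was called, with a summed level of 23700 to 24870 CPM with IL-13, against 30930 to 31460 CPM in untreated cells. Lyz2, lysozyme, made up 1.14% of the counts with IL-13 and 1.76% in untreated cells, and Adgre1, the gene of F4/80, stood at a log2 fold change of -0.15 ± 0.031. None of 9 neutrophil markers was called, with a sum of 330.5 to 501.5 CPM, against 512.9 to 569.9 CPM. Of 6 stromal markers 4 were tested and none was called, with a median log2 fold change of -0.52. The summed level of the 6 was 62.65 to 126.4 CPM with IL-13, against 82.38 to 172.7 CPM in untreated cells. The part of stromal cells in the collagen results above was not tested. Of the 5 eosinophil markers Siglecf (log2 fold change 2.36 ± 0.17) and Ccr3 rose, while the granule genes Prg2, at 3.58, 4.17 and 2.89 CPM with IL-13, against 5.46, 7.07 and 5.97 CPM in untreated cells, and Epx, under 1 CPM, were not called. Siglecf and Ccr3 stand beside Rnase2a and Ear2, ribonucleases of the eosinophil type, and the part of other cells in those results was not tested. Of the T and NK cell markers only Cd4 was among the genes analysed, and it fell (log2 fold change -1.07 ± 0.24), a call lost under TREAT and without IL-13 replicate 1 or untreated replicate 2. Cdh1 was the 1 epithelial marker tested, and Epcam and Krt8 were not among the genes analysed. Single genes of other lists were called: Pecam1 rose (log2 fold change 1.34 ± 0.084) and Kdr fell (-1.03 ± 0.34) of the endothelial list, Gata2 rose (2.05 ± 0.43) of the mast cell list, Zbtb46 rose (1.53 ± 0.50) of the dendritic cell list, and Itga2b fell (-1.61 ± 0.44) of the platelet list, of which TREAT called Pecam1 alone. The other measured members were not called: the mast cell list's stood at -0.97, the dendritic cell list had a median of -0.36, and the summed level of the platelet list was 353.6 to 392.3 CPM with IL-13, against 183.3 to 215.4 CPM in untreated cells, higher although Itga2b fell. The call of Kdr was lost without any 1 of IL-13 replicates 2 and 3 and untreated replicate 1, that of Zbtb46 without IL-13 replicate 3 or untreated replicate 1, and that of Itga2b without untreated replicate 1.

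The effect of IL-13 was read a second time in the other 6 libraries, as IL-13 + DKK1 against DKK1. Those libraries share a fit with the comparison above, and so a filter, scaling and estimate of the spread. In this second reading 529 genes were called higher, 3.24% of those tested, and 371 lower, 2.28%. Of the 758 genes that rose with IL-13 alone, 294 were called higher there too (38.8% of the 758, 55.6% of the 529) and 7 were called lower. The sign was the same for 638 of them (84.2%), with a median log2 fold change of 1.47 for IL-13 alone and 0.82 with DKK1. Of the 553 that fell, 90 were called lower there (16.3% of the 553, 24.3% of the 371) and 13 higher, and 415 (75.0%) had the same sign, with medians of -1.41 and -0.43. The genes were chosen for their change without DKK1, so their smaller change in other libraries is no finding in itself.

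For some genes the second reading lay close to the first, by value. They were Slc7a2 (3.34 ± 0.087 with DKK1, 3.31 ± 0.085 without), Gatm (3.09 ± 0.055 and 3.08 ± 0.053), Egr2 (3.19 ± 0.13 and 3.13 ± 0.093), Cd36 (1.46 ± 0.045 and 1.40 ± 0.045) and Tlr2 (-1.38 ± 0.039 and -1.45 ± 0.040), as log2 fold changes. For others the fold change was smaller with DKK1. The control there is DKK1 alone, which for some genes may itself stand above untreated cells. The paper reports no induction of Fizz1 (Retnla) by DKK1. The part of the control in the smaller folds was not tested. Retnla changed by 0.93 ± 0.56 on the log2 scale with DKK1, against 8.06 ± 0.28 without, a difference of -7.13 (adjusted p = 3.50e-04, edgeR, interaction). Ccl5 changed by 0.052 ± 0.12 on the log2 scale with DKK1, against 4.04 ± 0.19 without (difference -3.99, adjusted p = 2.05e-06, edgeR, interaction), and Mmp12 by 0.53 ± 0.15, against 2.23 ± 0.15 (difference -1.71, adjusted p = 3.47e-04, edgeR). For Ciita the sign of the log2 fold change turned, with -1.67 ± 0.18 with DKK1, against 1.33 ± 0.16 without (difference -3.01, adjusted p = 8.29e-07, edgeR), and so it did for Tnf, with 1.15 ± 0.10, against -1.08 ± 0.10 (difference 2.23, adjusted p = 2.92e-14, edgeR). A few were larger with DKK1, among them Flt1 (log2 fold change 4.20 ± 0.12, against 2.71 ± 0.081), Ccl7 (5.00 ± 0.14, against 2.24 ± 0.25) and Myc (2.95 ± 0.12, against 0.79 ± 0.089). Over all genes the effect of IL-13 differed by more than 1 on the log2 scale at an adjusted p under 0.05 for 755 genes, 4.63%.

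**Figure D5:**
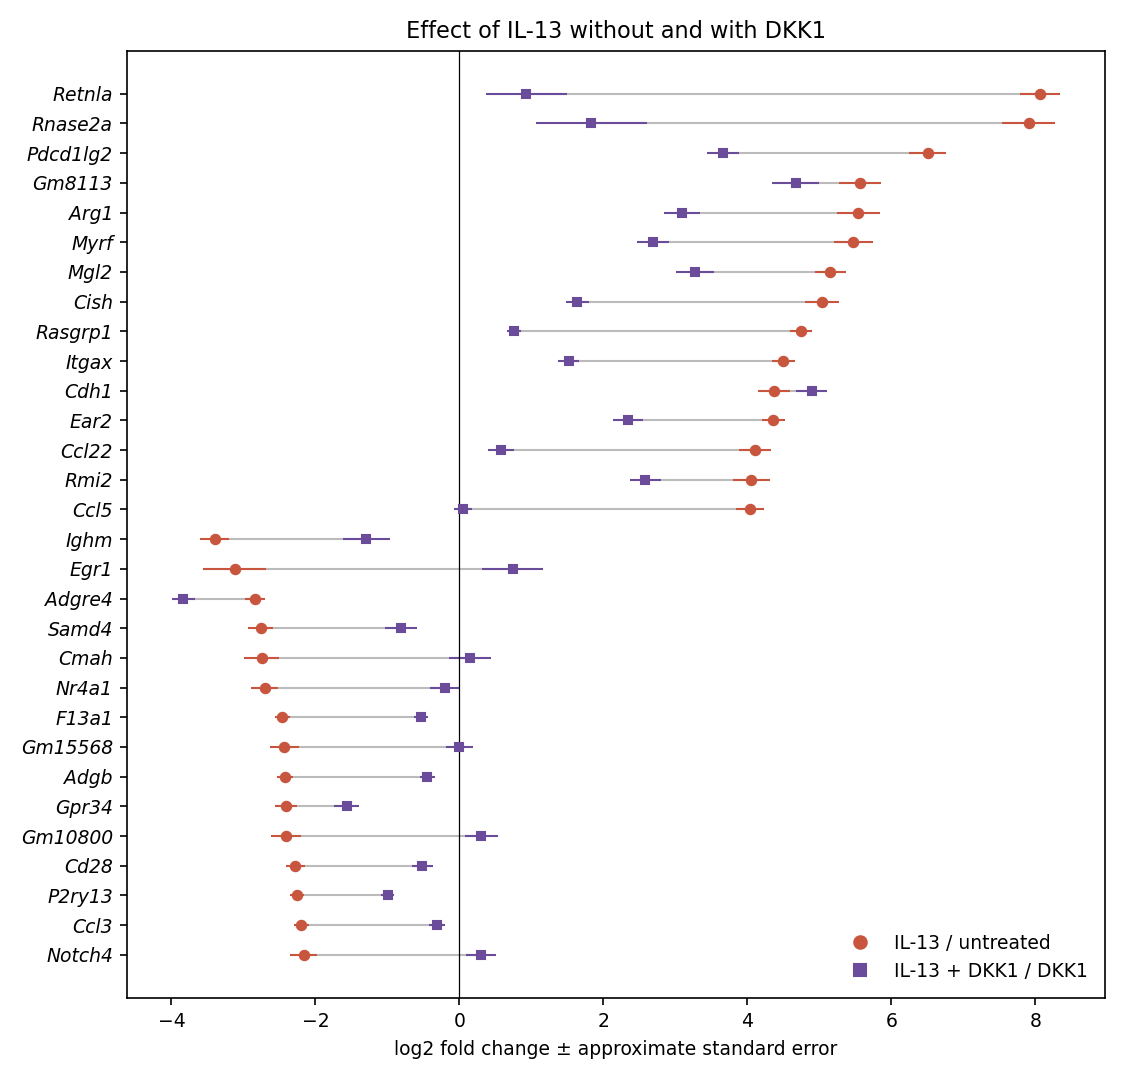
Log2 fold change ± approximate standard error of IL-13 over untreated (red circles) and of IL-13 + DKK1 over DKK1 (purple squares). Shown are the 15 genes that rose most and the 15 that fell most with IL-13 alone under the naming rule given below, chosen on the red values. The purple squares lie nearer to 0 for most genes, Retnla at 0.93 against 8.06, but beyond the red circles for Cdh1 and Adgre4, which with Gm8113 and Gpr34 are the 4 genes whose difference was not called.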

How the data were processed

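RNA of 12 BMDM cultures was made into libraries with the TruSeq Stranded Total RNA kit after Ribo-Zero Gold depletion, which leaves non-coding RNA in the libraries. The authors deposited a table of whole-number read counts for 17723 genes. Per the submitters' processing notes the tools were FastQC 0.11.9, STAR 2.7.6a, featureCounts and DESeq2 1.30.0 with the build GRCm39, and for featureCounts no source used here gives the version, annotation or strand setting. The highest count of every listed gene was at least 11. Of deposited counts from 1 to 20, 75.5% were even, against 51.3% of those above 1000, and whether both reads of a pair were counted is not given, so counting intervals may be too narrow. Those intervals, like the floor of 3 counts used for a group at 0, hold counting error alone, and reads carry no molecular identifiers.

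Samples were grouped by their labels, and 0 per-sample columns were left unused. Counts were filtered (edgeR's filterByExpr, minimum count 10, minimum total 15), which left 16306 genes, scaled by TMM and fitted over all 12 libraries in edgeR 4.0.16 (glmQLFit, robust) under R 4.3.3, with limma 3.58.1. IL-13 was tested against untreated, and IL-13 + DKK1 against DKK1. Standard errors were the absolute log2 fold change over the square root of F. The biological coefficient of variation was 0.0612. Tested on data simulated over 15859 genes of this comparison, the calls recovered 67 of 67 genes changed 3-fold and 66 of 66 changed 6-fold. Of 67 changed 1.5-fold, 53 reached the adjusted p with 0 called, and 4 of 15659 unchanged genes were called. The simulation used the spread estimated by this fit. Its changed genes were drawn only from those well above the floor in untreated cells, so the recovery does not cover genes at low CPM. IDs were matched to GENCODE vM39 (99.6%) for coordinates and promoters on GRCm39. No protein sequences were used here.

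The members and gene lists were chosen with earlier results of these data known. The naming rule first took called genes with a gene symbol, 100 counts or more on average and no overlap between groups. Of these it named the 15 with the highest and the 15 with the lowest log2 fold change. It also named all members of the receptor, marker and heatmap lists, and the 6 genes with the largest F. From each other list it named up to 4 called genes a direction by adjusted p, and the list's most abundant member. Adgre1, Arg2, Ass1, Atp5b, Ccl12, Ccl6, Ccl8, Ccnd1, Ccne1, Ccne2, Cd79a, Cd79b, Csf1r, Dcstamp, Epx, Fdps, Fth1, H2-Aa, H2-Ab1, H2-Eb1, Il10, Il6, Itgb7, Lyz2, Mki67, Nos2, Pcna, Prg2, Saa3, Src, Tlr4, Tnf and Top2a, and other genes of the cell cycle plot, were named after their values were seen. Gene lists were described by counts and medians, with no set test. DESeq2 1.42.0 and the alternatives of the closing section were run beside the main test.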

Additional observations from a re-analysis of the deposited data

Results flagged for a closer look

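The naming rule gave 30 genes that rose or fell most with IL-13 alone. For 26 of them the effect of IL-13 differed between cells with and without DKK1 by edgeR's interaction test (adjusted p under 0.05 and a difference above 1 on the log2 scale). The difference is given as the log2 fold change of IL-13 + DKK1 over DKK1 minus that of IL-13 over untreated. In all 26 the size of the effect was smaller with DKK1. Each fold is over its own control, so a smaller fold need not mean a lower level with IL-13 + DKK1. Levels with DKK1 alone are not given here. The paper reports Arg1 and Ccl22 as raised by DKK1 alone, and Arg1 as higher with both than with IL-13 alone. It reports no induction of Fizz1 (Retnla) by DKK1. For Egr1, Cmah, Gm10800, Gm15568 and Notch4, which fell without DKK1, the log2 fold change with it was at or above 0 (highest 0.74, Egr1), and none of these was called there. The genes were chosen for a large effect without DKK1, on the libraries that enter the difference.

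Among the 13 genes that had risen, the difference was -7.13 for Retnla and -6.07 for Rnase2a, the RELMα and ribonuclease genes. It was -3.99 for the chemokine Ccl5 and -3.99 for Rasgrp1, then -3.53 for Ccl22, -3.40 for Cish, -2.98 for Itgax, -2.84 for Pdcd1lg2 and -2.79 for Myrf. The arginase gene Arg1 differed by -2.45, Ear2 by -2.01, the lectin Mgl2 by -1.87 and Rmi2 by -1.47.

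Among the 13 that had fallen, the difference was 3.86 for Egr1 and 2.51 for Nr4a1, both immediate-early genes. It was 2.90 for Cmah, 2.71 for Gm10800, 2.47 for Notch4, 2.43 for Gm15568 and 2.10 for Ighm. Adgb differed by 1.97, Samd4 by 1.95, F13a1 by 1.93, Ccl3 by 1.88, Cd28 by 1.76 and P2ry13 by 1.26.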

How the results depend on the processing

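The counts of 758 genes higher and 553 lower with IL-13 were 762 and 548 with DESeq2's size factors, 740 and 583 with library sizes alone, 785 and 600 with no filter, 769 and 510 on the 6 libraries alone and 783 and 617 with DESeq2. A minimum count of 50 tested fewer genes and called 614 higher and 341 lower. TREAT called 356 higher and 110 lower, and 185 and 97 for IL-13 + DKK1 over DKK1. Leaving out 1 library in turn gave 713 to 796 higher and 484 to 601 lower, and 484 to 551 and 343 to 375 with DKK1. No count and no named gene's call turned direction, but several list medians near 0 did: for example, that of the receptor list ran from -0.131 to 0.0255 and that of the type I interferon genes from -0.0593 to 0.204 over the alternatives. Of 214 called genes among 260 named, 133 were called under every alternative that tested them, and TREAT lost 81. Fitted on the 6 libraries alone, Cd14, Cxcl3, Il1a, Il1rl1, Irf7, Itga6, Itgal and Saa3 were not called.

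Whether the replicate numbers pair the libraries was not settled. The correlations of same-numbered deviations were weak, at 0.0776, 0.0177 and 0.0423. Each IL-13 library correlated best with its own number, while untreated replicate 2 correlated best with IL-13 replicate 3 (0.0251). With a replicate block 763 genes were higher and 560 lower, and 535 and 371 for IL-13 + DKK1 over DKK1. The block ended the calls of Il18r1 and Saa1 alone among the named genes. The depth, with a median of 35269587 counts in the IL-13 libraries and 36117403 in the untreated ones, limits the genes with few counts, such as Nos2, Il6 and Cd209e.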
